A study of Mus musculus with 10 samples.

Results

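The comparison described here is the response to lipopolysaccharide (LPS) of CD43- splenic B-cells from mice that lack the 3'RR, the regulatory region downstream of the constant genes of the immunoglobulin heavy chain locus. Its members were chosen by sample label: 2 libraries of cells given 5 µg/ml LPS against 2 libraries of non-stimulated cells, 4 of the 10 small RNA libraries of the series. Both conditions were cultured for 2 days per the labels, each library pools 2 mice, and the methods of the study describe mice aged 8 to 12 weeks, of both sexes, with the mutant in the strain background of the wt mice. All 4 libraries carry the 3'RR deletion, so the deletion does not differ within the contrast. The methods of the study describe RNA of such cells taken before as well as after stimulation, and if the non-stimulated cells of these libraries were taken before culture, LPS and the time in culture cannot be told apart. The 4 wild-type (wt) libraries, made from cells with the intact locus under the same conditions, entered the model to share the estimate of the spread and are set beside the results at the end. Whether the pools were cultured separately is not stated for these libraries, so the p-values measure the spread between pools, which may be technical.

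Every class of small RNA in the count table was used. Of 6968 rows, 3987 had enough counts to be tested, and these comprised 603 mature microRNAs, 110 microRNA hairpins, 423 tRNAs, 2208 piRNA clusters, 282 snoRNAs, 159 snRNAs, 71 rows of the class misc_RNA and 128 rRNAs. The remaining rows tested were 2 lincRNAs and 1 sense_intronic row.

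LPS, a component of Gram-negative bacteria, is sensed by Toll-like receptor 4 and drives resting B-cells into growth, proliferation, class switching and plasmablast differentiation. MicroRNAs are cut as a short duplex from a hairpin precursor, and one arm of the duplex is usually retained in the silencing complex, where bases 2 to 8 (the seed) choose the messenger RNAs to be repressed. In a small RNA library, reads from tRNAs and snoRNAs are mostly fragments of those RNAs, which otherwise serve translation and the modification of ribosomal and spliceosomal RNA. In bulk RNA, fewer cells of a type and less of an RNA per cell cannot be told apart.

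Where RefSeq (GRCm38.p6) gave a sequence, the mature microRNAs on which the results turn are shown 5′ to 3′, with the seed in capitals. None was found for miR-135b-5p, which was higher with LPS. The same holds for miR-150-5p, miR-143-3p, miR-328-3p, miR-5107-5p, miR-486a-5p and miR-486b-5p, which were lower. The first set comprises microRNAs that were higher in both LPS libraries.

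miR-155-3p: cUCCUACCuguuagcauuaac
miR-155-5p: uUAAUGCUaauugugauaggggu
miR-148a-5p: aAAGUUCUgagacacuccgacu
miR-135a-5p: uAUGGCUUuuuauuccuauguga
miR-5121: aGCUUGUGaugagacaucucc
miR-21a-3p: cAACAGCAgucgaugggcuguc
miR-9-5p: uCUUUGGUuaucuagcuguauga
miR-92a-1-5p: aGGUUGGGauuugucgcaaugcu
miR-183-5p: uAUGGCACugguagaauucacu
miR-34a-5p: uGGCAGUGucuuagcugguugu

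No seed was shared among the 10 microRNAs shown, and the seeds of miR-135a-5p and miR-183-5p begin with the same letters but end differently. The seed of miR-135b-5p, of the same family as miR-135a-5p, could not be compared. The second set comprises microRNAs that were lower in both LPS libraries, together with let-7f-5p, an abundant let-7 member, shown for the seed it has in common with let-7b-5p.

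miR-223-3p: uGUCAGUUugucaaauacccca
miR-1249-3p: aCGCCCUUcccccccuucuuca
let-7b-5p: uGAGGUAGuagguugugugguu
let-7f-5p: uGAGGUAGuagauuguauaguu
miR-181a-5p: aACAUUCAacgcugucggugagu
miR-125b-5p: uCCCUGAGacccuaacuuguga
miR-511-3p: aAUGUGUAgcaaaagacaggau

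The 4 libraries held 11915044 and 3756662 counts (non-stimulated) and 6056266 and 13859730 counts (LPS). Levels are given as CPM, the depth-normalised read count after TMM scaling over all rows, in the order non-stimulated 1, non-stimulated 2, LPS 1, LPS 2. The second non-stimulated library stood apart from the first: 0.266% of its counts were rRNA, against 0.00743% in the first and 0.0272% and 0.0247% in the LPS libraries. Log2 differences between the non-stimulated replicates had an SD of 1.16 over all rows, against 0.86 for the LPS pair. Among mature microRNAs with a RefSeq sequence, the difference between the non-stimulated replicates moved with base composition, by 0.73 log2 units for each 10% of GC, against -0.13 for the LPS pair. Scaling on microRNA rows only, in place of all rows, moved the microRNA fold changes upward by a median of 0.70 log2 units.

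Over all classes no row passed an adjusted p of 0.05 in the edgeR quasi-likelihood test (0 of 3987, 0%), and the smallest adjusted p was 0.112, for miR-511-3p. At an unadjusted p under 0.05 there were 415 rows (10.4%), of which 230 (5.77%) were higher with LPS and 185 (4.64%) lower. With total count scaling, which shifted all rows upward by a median of 0.35 log2 units, 325 of 431 such rows were higher, or 75.4% in place of 55.4%. The DESeq2 Wald test, which gave an adjusted p for 2518 of the 3987 rows, called 51 higher (2.03%) and 62 lower (2.46%). Of the DESeq2 calls, 12 higher and 51 lower rows were mature microRNAs, 26 higher and 1 lower were piRNA clusters, and 11 higher and 8 lower were snoRNAs. A fit with a replicate term of its own for each culture condition, added after seeing the data, called 266 rows. Mature microRNAs fitted alone with the GC trend of each library removed gave 27 calls, 19 higher and 8 lower. Only the 497 rows with a RefSeq sequence were tested in that fit.

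When the microRNA class was fitted and scaled on its own counts, 7 of 720 rows (0.972%) passed the adjusted threshold and all of them rose with LPS, while 139 rows (19.3%) had an unadjusted p under 0.05. Of the 7, 4 had 0 counts in both non-stimulated libraries and passed the filter on low counts through LPS libraries, so that their direction was set by the filter. The 7 were miR-155-3p, miR-148a-5p, miR-135a-5p, miR-135b-5p, miR-5121 and the hairpins Mir148a and Mir181b-1. In the fit over all classes, none of the 7 passed (adjusted p between 0.222 and 0.32), and 6 of the 7 were called by DESeq2, which gave no adjusted p for Mir181b-1.

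miR-155-3p is the less abundant arm of miR-155, whose primary transcript Mir155hg is induced in activated B-cells and which is needed for germinal centre and class-switched antibody responses. miR-155-3p lies at chr16:84714182-84714202 on the plus strand and falls in a Mir155hg exon. Its levels were 11.9 and 2.88 CPM without LPS and 163 and 132 CPM with LPS, so the lowest LPS library lay far above the highest non-stimulated one. Against the first non-stimulated library the log2 ratios of LPS 1 and LPS 2 were 3.75 and 3.45, and against the second they were 5.72 and 5.41. The log2 fold change of miR-155-3p was 5.16 ± 0.79 (SE, adjusted p = 0.024) with the microRNA class alone and 4.31 ± 0.87 over all classes.

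The abundant arm, miR-155-5p, which is loaded in most silencing complexes formed from this hairpin, stood at 8484 and 4312 CPM without LPS and 38770 and 17281 CPM with LPS. The groups did not overlap, and the log2 fold change of miR-155-5p was 2.13 ± 0.78 (unadjusted p = 0.0241, adjusted p = 0.407 with edgeR and 0.0329 with DESeq2). In the microRNA fit it was 2.77 ± 0.73 (adjusted p = 0.111). Within each library, miR-155-3p made up 0.14% and 0.0666% of the reads of both arms without LPS and 0.419% and 0.758% with LPS. This share does not depend on how the libraries are scaled against each other.

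miR-148a, a microRNA of activated B-cells and plasma cells that favours plasmablast differentiation, was higher in both LPS libraries in the rows of both arms. miR-148a-5p (chr6:51269867-51269888, minus strand) was at 15.4 and 4.72 CPM without LPS and at 287 and 119 CPM with LPS, a log2 fold change of 5.04 ± 0.78 in the microRNA fit (adjusted p = 0.024). The hairpin row Mir148a (chr6:51269812-51269910) had 0 and 0 counts without LPS and 98 and 136 counts with LPS, at least 22.3-fold higher, taking 3 counts in each non-stimulated library as the limit. Its interval holds both arms and its direction was set by the filter on low counts, so it is not separate evidence. The abundant arm miR-148a-3p was at 3343 and 407 CPM against 10168 and 11548 CPM, higher in both LPS libraries but not past the test (log2 fold change 2.53 ± 1.36, unadjusted p = 0.0958). The share of miR-148a-5p among both arms overlapped between conditions, at 0.459% and 1.15% without LPS and 2.75% and 1.02% with LPS.

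The 5p arms of miR-135a and miR-135b had no reads in the non-stimulated 3'RR-deficient libraries and passed the filter on low counts through LPS libraries. The first wt non-stimulated library held 1.08 CPM of miR-135a-5p and 0.649 CPM of miR-135b-5p, and the second held none. miR-135a-5p (chr9:106154140-106154162, in hairpin Mir135a-1 and opposite an exon of Glyctk) had 0 counts in both non-stimulated libraries and stood at 18.5 and 39.9 CPM with LPS, at least 53.2-fold higher. miR-135b-5p (chr1:132198103-132198125, in an intron of Lemd1) had 0 counts in both non-stimulated libraries and 62 and 424 with LPS, at least 30.7-fold higher. Both were low even after LPS, miR-135b-5p at 10.8 and 22.9 CPM, and the second LPS library held the larger value in each case. Reads of near-identical family members may be shared between the rows, which the counting does not resolve.

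miR-5121 (chr7:45126925-45126945) stood at 14 and 6.57 CPM without LPS and 218 and 73 CPM with LPS, a log2 fold change of 4.43 ± 0.76 in the microRNA fit (adjusted p = 0.0277). Its position is also inside the snoRNA Snord33 and an exon of Rpl13a, a ribosomal protein gene, on the same strand, so its reads may be snoRNA fragments. Mir181b-1, one hairpin of the lymphocyte microRNA miR-181b, had 0 and 0 counts without LPS and 22 and 135 with LPS, at least 10.1-fold higher. The direction of this row, too, was set by the filter on low counts. The 3p arm specific to that hairpin, miR-181b-1-3p, was also higher in both LPS libraries, at 9.8 and 2.46 CPM without LPS and 28.3 and 19.3 CPM with LPS (unadjusted p = 0.128). miR-181b-5p, which the table places at Mir181b-2, was lower, at 2443 and 905 CPM without LPS and 881 and 586 CPM with LPS. Its log2 fold change of -1.19 ± 0.72 missed the threshold (unadjusted p = 0.136). Reads of miR-181b-5p may come from either hairpin, so these rows do not set one locus against the other.

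**Figure D1:**
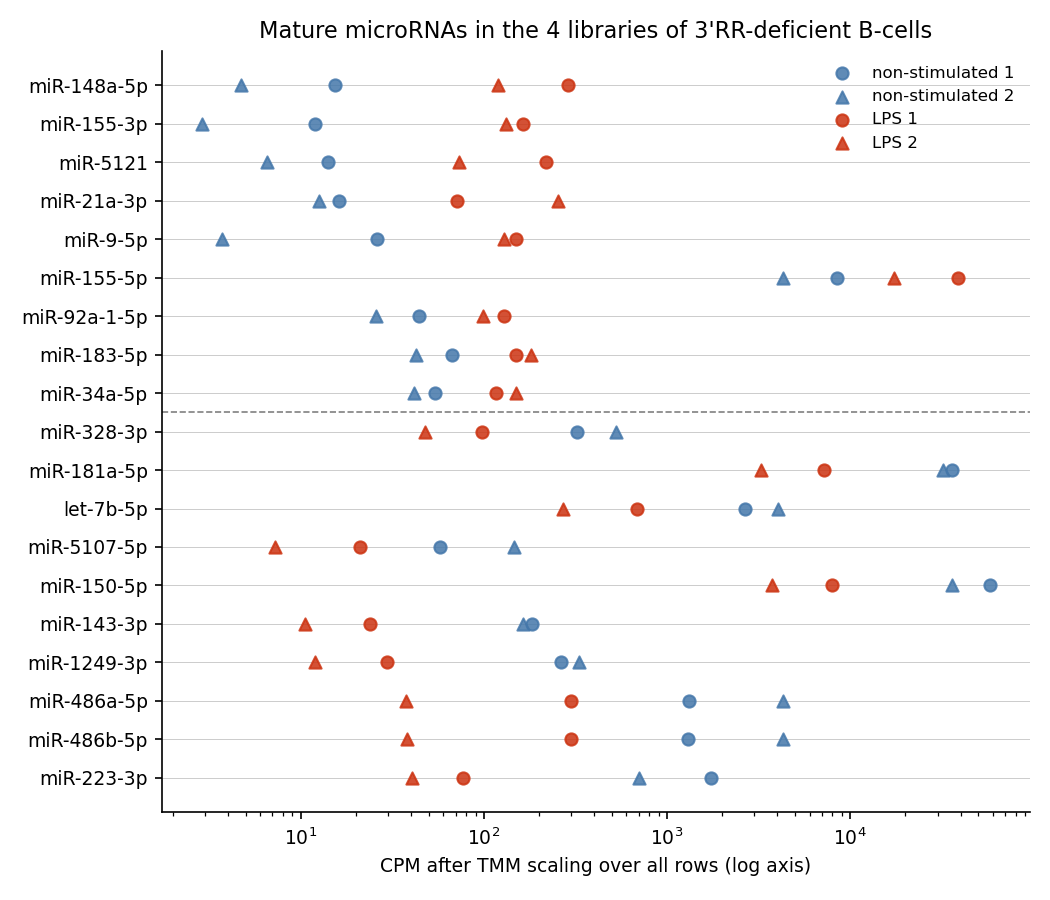
CPM (log axis, TMM scaling over all rows) of the 9 mature microRNAs named as higher (above the dashed line) and the 10 named as lower (below it), with 1 symbol per library: blue for the non-stimulated libraries, red for LPS, circles for replicate 1 and triangles for replicate 2. In each row the red and blue symbols do not overlap, which the rule for naming required, and miR-155-3p runs from 2.88 CPM in non-stimulated 2 to 163 CPM in LPS 1.

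By the rule for naming (unadjusted p under 0.05, at least 100 CPM in 1 group, no overlap), 9 mature microRNAs were higher with LPS and 35 were lower. Since the rule set the direction of each, the counts describe the rows and test nothing. Over all rows, 887 (22.2%) were higher without overlap and 690 (17.3%) were lower. For mature microRNAs the figures were 96 and 205 of 603. The split differed between fits, which differ in scaling, rows and spread: at an unadjusted p under 0.05, 37 mature rows were higher and 116 lower in the fit over all classes, against 60 higher and 58 lower with mature microRNAs fitted alone. With microRNA scaling, 287 mature rows had a fold change above 0 and 315 below 0.

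The higher microRNAs besides miR-5121 and those of miR-155 and miR-148a were miR-21a-3p, miR-9-5p, miR-92a-1-5p, miR-183-5p and miR-34a-5p. miR-21a-3p, the less abundant arm of a microRNA induced in activated lymphocytes, was at 16.2 and 12.5 CPM without LPS and 71.1 and 255 CPM with LPS (log2 fold change 3.5 ± 0.91). Its partner miR-21a-5p was the most abundant microRNA of the second LPS library, at 117118 and 9697 CPM without LPS and 137051 and 197128 CPM with LPS. Against the first non-stimulated library the log2 ratios of miR-21a-5p were 0.23 and 0.75, against the second they were far higher, and its log2 fold change was 1.4 ± 1.45 (unadjusted p = 0.361).

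miR-9-5p, which is known to target the messenger of Blimp-1, the regulator of plasma cell fate, was at 26 and 3.7 CPM against 150 and 128 CPM. The table places it at Mir9-3 on chr7, although the same mature sequence comes from several loci. miR-34a-5p, a target of p53, stood at 53.8 and 41.5 CPM against 117 and 150 CPM, with 4 log2 ratios between 1.12 and 1.85. The less abundant arm miR-34a-3p had 0 counts in both non-stimulated libraries and 13 and 48 with LPS. miR-183-5p, from the miR-183/96/182 cluster, stood at 66.7 and 42.5 CPM against 150 and 180 CPM, a log2 fold change of 1.59 ± 0.6. miR-92a-1-5p, a less abundant arm of the miR-17~92 cluster (chr14:115044437-115044459, in Mir17hg), stood at 44.3 and 25.9 CPM against 128 and 98.7 CPM, a log2 fold change of 1.69 ± 0.57.

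Among lower microRNAs with at least 100 CPM in 1 group, the 10 with the largest differences were miR-223-3p, miR-486a-5p, miR-486b-5p, miR-1249-3p, miR-143-3p, miR-150-5p, miR-5107-5p, let-7b-5p, miR-181a-5p and miR-328-3p. Their log2 fold changes ran from -4.38 to -2.56 over all classes, with adjusted p between 0.32 and 0.4, and from -3.88 to -2.11 in the microRNA fit, with adjusted p between 0.0769 and 0.231. DESeq2 called 9 of the 10, all but miR-5107-5p.

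Among them were miR-150-5p and miR-181a-5p, both abundant in these libraries. miR-150-5p, which accumulates in mature lymphocytes and restrains c-Myb, was at 58192 and 35750 CPM without LPS and 7986 and 3742 CPM with LPS, a log2 fold change of -3.0 ± 0.84 (unadjusted p = 0.00609). miR-181a-5p, which tunes antigen receptor signalling in developing lymphocytes, was at 35945 and 32087 CPM without LPS and 7202 and 3266 CPM with LPS, a log2 fold change of -2.70 ± 0.79 (unadjusted p = 0.00816). The non-stimulated replicates of miR-181a-5p lay close together, so that its ratios over the first (-2.32 and -3.46) and over the second (-2.16 and -3.30) were nearly the same.

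The less abundant arm of the miR-150 hairpin, miR-150-3p, was also lower in both LPS libraries, at 757 and 459 CPM without LPS and 320 and 147 CPM with LPS, but by less than its partner. It made up 1.28% and 1.27% of the reads of both arms without LPS and 3.86% and 3.79% with LPS. For the miR-223 hairpin the minor arm made up 4.05% and 3.3% without LPS and 10.7% and 9.36% with LPS. For miR-17 it was the reverse: miR-17-3p made up 26.3% and 52.5% of both arms without LPS and 9.72% and 10.6% with LPS. The minor arm share was computed, after seeing the data, for 99 hairpins with at least 100 reads of both arms together in every library. It was higher with LPS without overlap in 30 (30.3%), lower in 17 (17.2%) and overlapped in 52.

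miR-328-3p was at 324 and 529 CPM without LPS and 97.3 and 47.8 CPM with LPS. miR-1249-3p was at 263 and 332 CPM without LPS and 29.5 and 12 CPM with LPS. miR-5107-5p, from an intron of Cd74 (the invariant chain of antigen presentation), was at 57.8 and 146 CPM without LPS and 21.1 and 7.24 CPM with LPS. In all 3 the second LPS library was the lowest of the 4.

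The smallest unadjusted p of all rows belonged to miR-511-3p (2.82e-05), which lies in an intron of Mrc1, the macrophage mannose receptor gene. It had 55 and 33 counts without LPS and 0 and 1 with LPS, at least 22.7-fold lower. miR-6943-3p, in an intron of Grk6, had 27 and 44 counts without LPS and 2 and 3 with LPS, at least 19.5-fold lower. miR-125b-5p, which is known to repress Blimp-1 and Irf4 and so to hold back plasma cell differentiation, was at 67.8 and 85.6 CPM without LPS and 8.39 and 2.38 CPM with LPS, a log2 fold change of -3.86 ± 0.72 (unadjusted p = 0.000507, adjusted p = 0.239 with edgeR and 1.30e-05 with DESeq2).

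Several lower microRNAs are markers of other cells that a spleen fraction can hold. Depletion of CD43+ cells, by which the B-cells were obtained, also removes granulocytes and monocytes that carry CD43. The counts of markers below stand beside 17.3% of all rows, and 205 of 603 mature microRNAs, that were lower without overlap. The summed level of the myeloid markers (both arms of miR-223) was 1820 and 723 CPM without LPS and 86.3 and 44.5 CPM with LPS, and 2 of 2 were lower without overlap. miR-223-3p alone stood at 1746 and 699 CPM against 77.1 and 40.3 CPM. The erythroid markers summed to 5605 and 8926 CPM against 1206 and 248 CPM, and 2 of 5 were lower without overlap, namely miR-486a-5p and miR-486b-5p, which share a mature sequence and have nearly equal counts. miR-451a, the defining erythroid microRNA, was at 2133 and 255 CPM against 446 and 107 CPM, so that the groups overlapped. The stromal and smooth muscle markers, among them miR-143-3p, summed to 206 and 186 CPM against 25.3 and 11.7 CPM, and 5 of 5 were lower without overlap. Of these, miR-143-3p was at 182 and 163 CPM without LPS and 23.9 and 10.5 CPM with LPS, and miR-145a-5p had 26 and 40 counts without LPS and 0 and 0 with LPS.

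The epithelial markers summed to 3439 and 756 CPM against 868 and 417 CPM, with 2 of 5 lower without overlap, and the endothelial markers to 74.4 and 28.5 CPM against 32.3 and 27.3 CPM, with 0 of 2. The liver marker miR-122-5p was at or below 3.9 CPM, muscle markers were at or below 0.821 CPM and the neuronal marker miR-124-3p was at 0 in all 4 libraries. The lymphoid markers, which the labelled cell type should carry, summed to 209953 and 76607 CPM against 92821 and 57019 CPM. The summed myeloid, erythroid and stromal markers were lower in both LPS libraries, as were the other lower microRNAs, and their part in those results was not tested. The erythroid median log2 fold change was -2.11, but it was 0.13 without the first non-stimulated library, with 3 of 5 markers above 0. The epithelial median likewise turned from -1.67 to 0.59. The myeloid and stromal medians stayed below 0 without either non-stimulated library.

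Taken by list, the 14 lymphocyte microRNAs had a median log2 fold change of 0.21, beside -0.04 over all rows and -0.83 over mature microRNAs. With microRNA scaling the list median was 1.23, and it was 2.84 without the first non-stimulated library and -0.55 without the second. Beside each list stand 10.4% of all rows and 25.4% of mature microRNAs at an unadjusted p under 0.05. Of the 14, 4 were higher and 3 lower at an unadjusted p under 0.05, the 3 being miR-150-5p, miR-181a-5p and miR-342-3p, the last at 8681 and 4383 CPM against 2402 and 847 CPM. miR-142a-5p, a microRNA of all blood cells, was at 103272 and 4295 CPM without LPS and 37241 and 28418 CPM with LPS. Its sign depended on the replicate: lower than the first non-stimulated library and higher than the second.

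The list of 10 microRNAs linked to NF-kB and Toll-like receptor signalling had a median log2 fold change of 0.28 (0.99 with microRNA scaling and 1.27 without the first non-stimulated library), with 3 higher and 2 lower at an unadjusted p under 0.05. Besides miR-155-5p and miR-9-5p, the higher one was miR-212-3p, at 3.21 and 2.46 CPM without LPS and 18.5 and 6.43 CPM with LPS (log2 fold change 2.11 ± 0.72). miR-146a-5p, a feedback inhibitor of Toll-like receptor signalling through Traf6 and Irak1, was at 54501 and 10480 CPM without LPS and 35663 and 25826 CPM with LPS. Both LPS values of miR-146a-5p lay between the non-stimulated ones, and its log2 fold change was -0.08 ± 1.03.

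Of the 28 arms of miR-17~92 and its paralogue clusters, which promote lymphocyte proliferation and survival, 25 were tested. The median log2 fold change was 0.54 (1.56 with microRNA scaling), 17 were higher and 8 lower, and 8 were higher without overlap, beside 96 of 603 mature microRNAs. The median over the arms was 2.45 without the first non-stimulated library and 0.06 without the second. miR-17-5p was at 558 and 57.9 CPM without LPS and 1020 and 994 CPM with LPS (unadjusted p = 0.169). miR-92a-2-5p, a rare arm, was at 1.77 and 1.44 CPM without LPS and 14.3 and 7.35 CPM with LPS, a log2 fold change of 2.73 ± 0.61 (unadjusted p = 0.00164). miR-92a-3p, the most abundant of the list, was at 53498 and 60209 CPM without LPS and 53132 and 26645 CPM with LPS.

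All 11 tested members of the let-7 family, which repress growth genes, had fold changes below 0 over all classes. By RefSeq, 10 of the 11 have the seed of let-7b-5p and let-7j does not. The let-7 median log2 fold change was -1.28, and -0.57 with microRNA scaling, under which 2 of the 11 (miR-98-5p and let-7j) were above 0. Without the first non-stimulated library the let-7 median was -0.46 and 4 of the 11 were above 0, namely miR-98-5p, let-7j, let-7i-5p and let-7g-5p. Over mature microRNAs, 404 of 603 were below 0 and 205 were lower without overlap. Of the 11, 6 were lower without overlap and 5 of these had an unadjusted p under 0.05. let-7b-5p was at 2667 and 4038 CPM without LPS and 685 and 270 CPM with LPS. let-7d-5p was at 15990 and 14908 CPM without LPS and 5235 and 3033 CPM with LPS, a log2 fold change of -1.9 ± 0.74. let-7c-5p was at 19077 and 20505 CPM without LPS and 6777 and 3306 CPM with LPS, a log2 fold change of -1.97 ± 0.83. Close relatives may share reads, so the members may not be separate measurements.

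The 16 microRNAs of the quiescence list, among them the miR-15/16, miR-26, miR-29 and miR-30 families, had a median log2 fold change of -0.93, -0.11 with microRNA scaling and 0.54 without the first non-stimulated library. miR-15b-5p was at 12090 and 13757 CPM without LPS and 3995 and 2726 CPM with LPS (unadjusted p = 0.0202). miR-26a-5p was at 113943 and 13830 CPM without LPS and 28158 and 12430 CPM with LPS, so that the second non-stimulated value lay between the LPS values. The 5 microRNAs of the terminal differentiation list had a median log2 fold change of -1.28, with miR-9-5p higher and miR-125b-5p lower, and the median was -0.56 with microRNA scaling and 0.24 without the first non-stimulated library.

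Each change was checked against both non-stimulated replicates. The mean log2 ratio of the LPS libraries had the same sign over both replicates in 2511 of 3987 rows (63%). By class the percentage was 66.2 for mature microRNAs, 66.4 for hairpins, 66.9 for tRNAs, 64.4 for piRNA clusters and 76.2 for snoRNAs. It was 41.5 for snRNAs, 33.8 for misc_RNA and 19.5 for rRNA. More than 2-fold in each of the 4 single-library ratios was seen in 187 rows higher with LPS (4.69%) and 154 rows lower (3.86%).

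**Figure D2:**
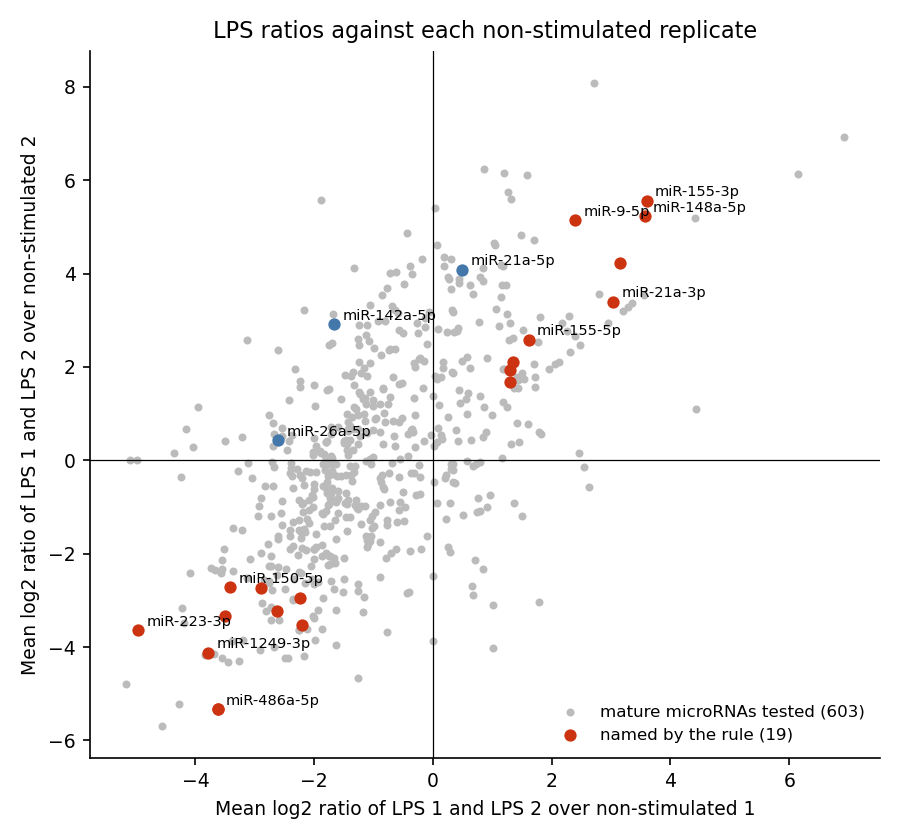
Mean log2 ratio of the LPS libraries over non-stimulated 1 (horizontal axis) and over non-stimulated 2 (vertical axis) for the 603 mature microRNAs tested (grey). The 19 microRNAs named by the rule (red) lie in the lower left and upper right quadrants, while miR-142a-5p and miR-26a-5p (blue) lie in the upper left one, with opposite signs over the replicates, and miR-21a-5p (blue) is close to 0 over the first replicate only.

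MicroRNA hairpin rows are counted apart from the mature arms, and where in the hairpin their reads fall was not analysed here. The hairpins' median log2 fold change was 0.66, beside -0.83 for mature rows. The mature median turned to 0.20 without the first non-stimulated library and was -0.12 with microRNA scaling. At an unadjusted p under 0.05, 20 of 110 hairpins were higher and 4 lower, beside 5.77% and 4.64% of all rows. In 20 hairpins all 4 ratios exceeded 2-fold upward, and in 3 downward, beside 4.69% and 3.86% of all rows. Mir106b, within an intron of the replication gene Mcm7, was at 1.61 and 3.08 CPM without LPS and 38.8 and 14.4 CPM with LPS, a log2 fold change of 3.5 ± 0.89 (unadjusted p = 0.00363). Its far more abundant mature arms overlapped between conditions, with log2 fold changes of -0.11 ± 1.24 (miR-106b-5p) and -0.58 ± 0.63 (miR-106b-3p). The Mir21a hairpin was at 45.3 and 24 CPM without LPS and 156 and 141 CPM with LPS, a log2 fold change of 2.09 ± 0.71. The hairpin ENSMUST00000175243 (chr2:73012854-73012927), for which no gene name was found, was at 16.9 and 19.9 CPM without LPS and 131 and 41.6 CPM with LPS.

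The shares of the 4 large classes overlapped between the conditions. Mature microRNAs took 80.9% and 67.2% of the counts without LPS and 70.9% and 75.6% with LPS. tRNAs took 6.73% and 13.4% against 8.48% and 11.5%, piRNA clusters 9.13% and 12.4% against 12.8% and 8.89%, and snoRNAs 3% and 6.02% against 7.31% and 3.48%. Wilson 95% intervals were at most 0.047 percentage points wide on either side, for counting error only. No class reached an exact two-sided permutation p below 0.333, which is the smallest that 2 libraries against 2 allow.

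**Figure D3:**
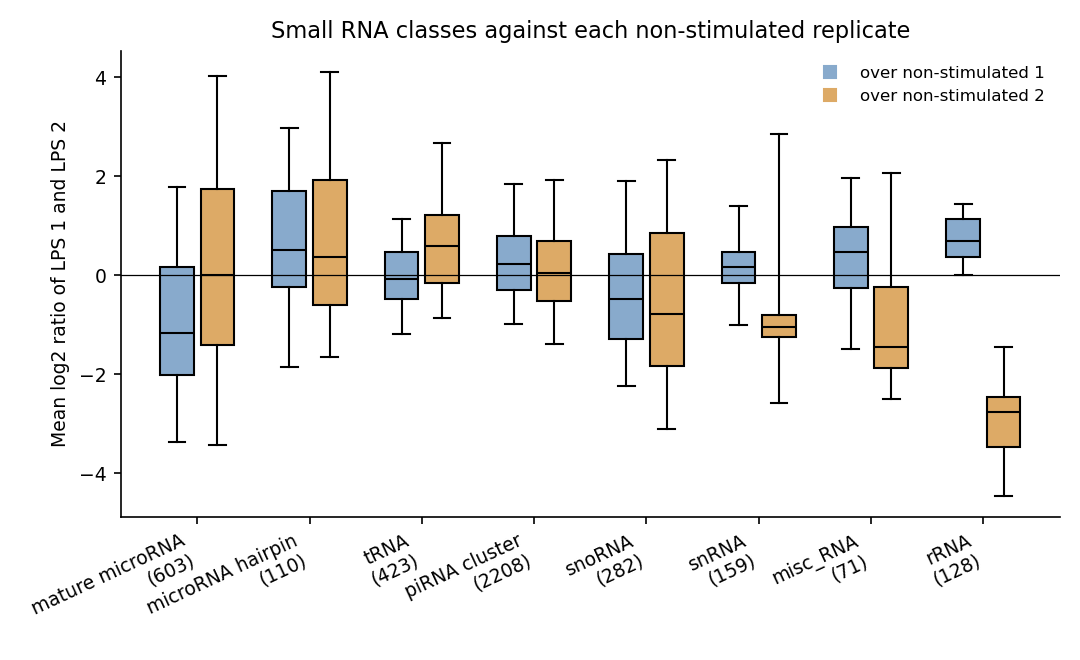
Mean log2 ratio of the LPS libraries over non-stimulated 1 (blue) and over non-stimulated 2 (orange) for each small RNA class, with the number of rows in parentheses. Boxes span the quartiles with the median as a line, and whiskers reach the 5th and 95th percentiles: the medians of rRNA rows are 0.70 over the first replicate and -2.76 over the second, while those of mature microRNAs are -1.18 and 0.00.

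For tRNAs, 14 of 423 rows were higher and 2 lower at an unadjusted p under 0.05, a total of 3.78% beside 10.4% over all rows, and the median log2 fold change was 0.20. The edgeR fit with a replicate term for each culture condition, added after seeing the data, called 20 tRNA rows higher and 16 lower. Over all 3987 rows that fit called 136 higher and 130 lower. The tRNA median was 0.73 with total counts, 0.67 without the first non-stimulated library and 0.02 without the second. Rows for copies of one tRNA may share reads and may not be separate measurements. Over all rows 22.2% were higher and 17.3% lower without overlap. All 10 tyrosine tRNA rows were higher without overlap, 7 of them at an unadjusted p under 0.05, and their summed level was 474 and 244 CPM without LPS and 917 and 1625 CPM with LPS. The row chr13.tRNA106-TyrGTA was at 32.9 and 16.2 CPM without LPS and 89.6 and 121 CPM with LPS, a log2 fold change of 2.1 ± 0.74. The row chr13.tRNA973-TyrGTA had the same fold change, 2.1 ± 0.82, and chr13.tRNA89-LysTTT, a lysine tRNA, was at 14.3 and 5.34 CPM against 46 and 53.5 CPM.

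All 11 histidine rows and all 7 phenylalanine rows were also higher without overlap, and 5 of 8 tryptophan rows, with medians of 1.12, 1.28 and 2.19, beside 141 of all 423 tRNA rows. Without the first non-stimulated library these medians were 2.35, 1.80 and 2.80, and without the second 0.56, 1.05 and 1.91. Of the 16 aspartate rows, 15 were lower without overlap, beside 54 of the 423, and their summed level was 30855 and 23266 CPM without LPS and 13105 and 6809 CPM with LPS. None of these 4 groups had a row at an unadjusted p under 0.05. For these and tyrosine, 5 amino acids in all, the sign of the median was the same under every scaling and without either non-stimulated library. The same was true of the arginine, cysteine, leucine, lysine, methionine and selenocysteine rows, so it does not set these groups apart.

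For cysteine and alanine, 1 abundant row outweighed the others. Of 57 cysteine rows 46 were higher without overlap, yet the summed cysteine level was lower with LPS, at 5781 and 5497 CPM against 2924 and 3378 CPM. The difference lay in chr11.tRNA1444-CysGCA, at 3929 and 4098 CPM without LPS and 691 and 1409 CPM with LPS, a log2 fold change of -1.93 ± 0.67 (unadjusted p = 0.0189). Likewise chr5.tRNA1318-AlaTGC, at 13559 and 17334 CPM without LPS and 2485 and 5802 CPM with LPS, carried most of the alanine reads, which summed to 17139 and 19996 CPM against 4696 and 8840 CPM.

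**Figure D4:**
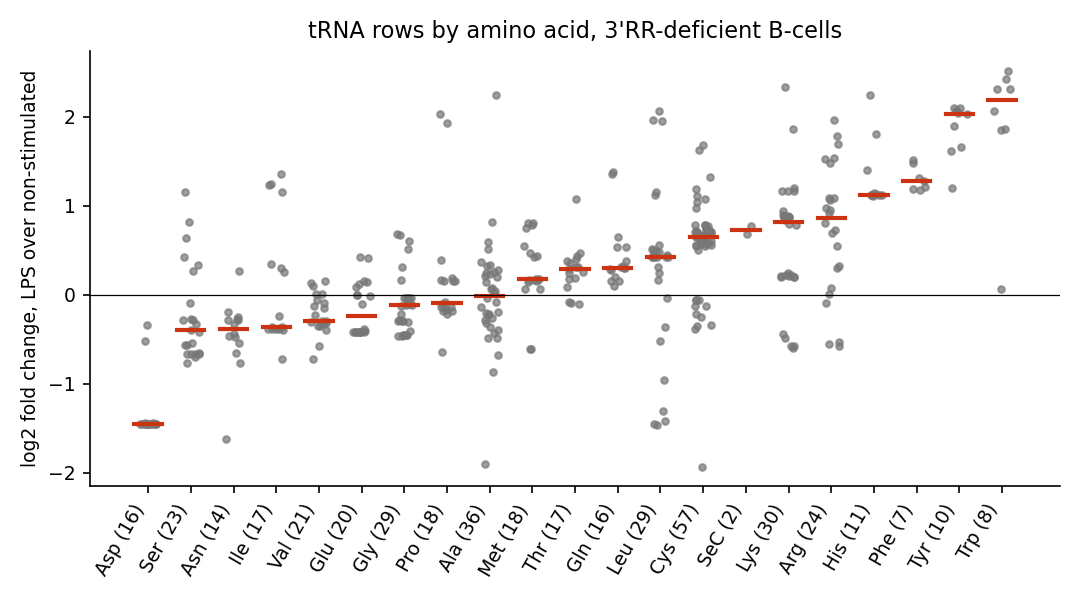
Log2 fold change (LPS over non-stimulated, edgeR over all classes) of each of the 423 tRNA rows, grouped by amino acid and ordered by the median (red line), with the number of rows in parentheses and points spread sideways for legibility. Aspartate lies lowest with a median of -1.45, and tyrosine (2.04) and tryptophan (2.19) lie highest, while the single low point of cysteine is chr11.tRNA1444-CysGCA at -1.93.

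Of 282 snoRNAs, 30 were higher and 40 lower at an unadjusted p under 0.05, and 49 were higher and 102 lower without overlap, with a median log2 fold change of -0.91, which was -0.61 without the first non-stimulated library and -0.32 without the second. Named families made up the minority of these rows, and the difference between them was not tested. The 28 H/ACA snoRNAs with Snora names, which guide pseudouridylation, had a median log2 fold change of -1.73, and 16 were lower and 1 higher without overlap, beside 17.3% and 22.2% of all rows. The 56 C/D snoRNAs with Snord names, which guide ribose methylation, had a median of 0.15, with 17 higher and 12 lower without overlap. The Snord median was 0.53 with total counts, 0.82 without the first non-stimulated library and 0.04 without the second. The 8 Scarna rows had a median of -0.93, which turned to 0.37 without the first non-stimulated library. The Snora median was -0.69 without the second non-stimulated library and -2.10 without the first. Snora17 was at 6.26 and 40.3 CPM without LPS and 2.45 and 3.95 CPM with LPS, and Snora28, in an exon of the translation factor gene Eif5, at 27.9 and 161 CPM against 10.8 and 15.6 CPM. In both, the second non-stimulated library was far above the first. Gm22354, a snoRNA at chr14:52069300-52069369, was at 438 ± 135 CPM without LPS and 80.2 ± 40.6 CPM with LPS (SD over 2 libraries), a log2 fold change of -2.45 ± 0.7.

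The 3 snoRNAs with the largest positive fold changes under the rule were Snord7, Snord73a and Snord14c. Snord14c, in Hspa8, a heat shock chaperone gene, was at 807 and 504 CPM without LPS and 11997 and 2714 CPM with LPS, a log2 fold change of 3.49 ± 0.9 (unadjusted p = 0.00396). Snord73a, in an intron of the ribosomal protein gene Rps3a1, was at 29.6 and 5.96 CPM without LPS and 360 and 94.8 CPM with LPS. Snord7 was at 3.69 and 1.44 CPM without LPS and 62.2 and 4.76 CPM with LPS. In each of the 3 the first LPS library was well above the second.

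Rows of the class piRNA are genomic clusters, in which reads of any origin that fall within the interval are counted. Of the 2208 tested, 121 were higher and 18 lower at an unadjusted p under 0.05, and the median log2 fold change was 0.16. The share of 6.3% in both directions together was below the 10.4% over all rows. Only 42 (1.9%) overlapped a row of another class on the same strand. piRNAclusterDB_788 (chr1:167221141-167228305), over exons of Uck2 on the same strand, was at 6.1 and 1.03 CPM without LPS and 50.3 and 77.3 CPM with LPS, a log2 fold change of 4.14 ± 0.85 (unadjusted p = 0.000994). piRNAclusterDB_912 (chr13:50637001-50660004) was at 2.57 and 2.88 CPM without LPS and 346 and 9.24 CPM with LPS, and piRNAclusterDB_1548 (chr12:109709064-109728159) at 4.5 and 6.98 CPM against 293 and 12.1 CPM. In the last 2 clusters the first LPS library stood far above the other 3 libraries.

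Among lower clusters, piRNAclusterDB_1020 (chr16:23104096-23115231), opposite Eif4a2 and its snoRNAs and over exons of Rfc4, was the most abundant, at 23495 and 7588 CPM without LPS and 5177 and 2273 CPM with LPS. piRNAclusterDB_400 was at 127 and 186 CPM without LPS and 32.2 and 65.4 CPM with LPS, and piRNAclusterDB_1794 at 124 and 180 CPM without LPS and 35 and 63.1 CPM with LPS.

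In the class misc_RNA 3 rows met the rule, all lower. Rmrp, the RNA of RNase MRP, which processes ribosomal RNA, was at 764 and 382 CPM without LPS and 225 and 85.8 CPM with LPS (unadjusted p = 0.0328). Gm23037 was at 15.7 and 62.8 CPM against 7.16 and 4.16 CPM, and ENSMUST00000157750 at 463 and 124 CPM against 86.7 and 40.5 CPM. No snRNA or rRNA row met the rule. The median log2 fold change of rRNA was -2.15, which was 1.29 without the second non-stimulated library and -3.07 without the first. The medians of snRNA (-0.70) and misc_RNA (-0.76) also turned positive without the second non-stimulated library, at 0.39 and 0.77.

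The response of wt cells was fitted in the same model. It gave 0 of 3987 calls (0%) with edgeR at the adjusted threshold, 453 rows (11.4%) at an unadjusted p under 0.05, and 123 calls with DESeq2. All 46 rows named by the rule or called in the microRNA fit had the same direction in wt cells, beside 74.5% of all rows tested, and same-numbered libraries of the genotypes deviated together, so the agreement is not independent. Of the microRNA calls, 4 of the 7 were also called in wt cells fitted the same way. The log2 fold changes in 3'RR-deficient and wt cells were 4.31 and 5.28 for miR-155-3p, 4.33 and 5.23 for miR-148a-5p, -3.0 and -2.93 for miR-150-5p and -2.70 and -2.83 for miR-181a-5p.

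No row passed the adjusted threshold in the edgeR test of the difference between the responses (0 of 3987, 0%), 39 (0.978%) had an unadjusted p under 0.05, and DESeq2 also called 0. Of the 46 rows, 1 had an unadjusted p of the difference under 0.05, piRNAclusterDB_912 (edgeR unadjusted p = 0.0492), with log2 fold changes of 6.02 and 1.44. A difference that misses the threshold does not show that the responses were alike.

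**Figure D5:**
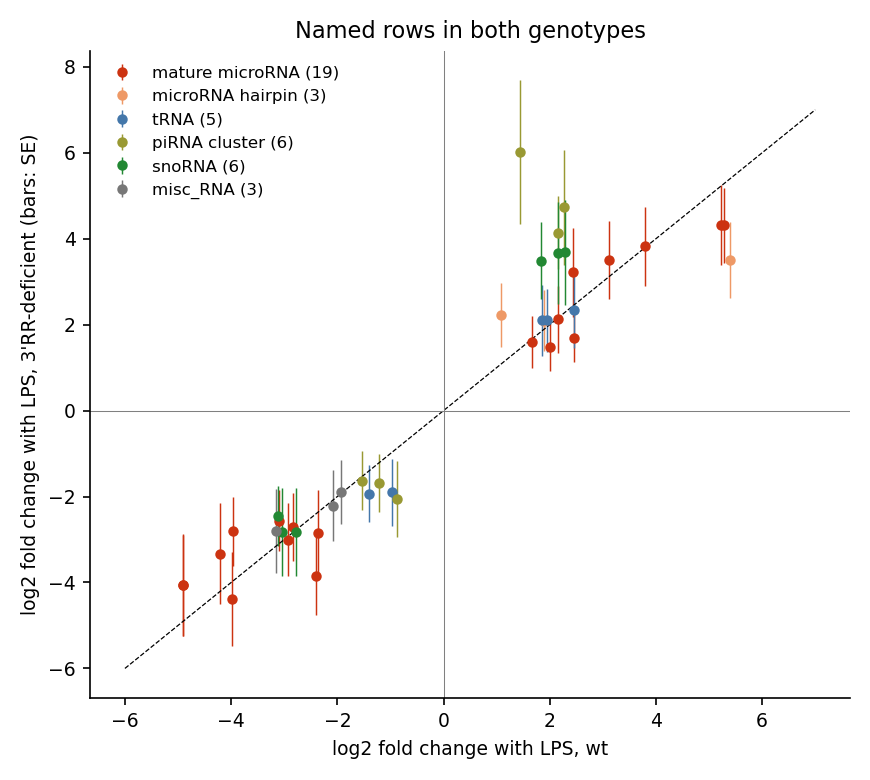
Log2 fold change with LPS in wt cells (horizontal axis) and in 3'RR-deficient cells (vertical axis, bars are the SE) for the 42 rows named by the rule, coloured by class with the number of rows in parentheses. The dashed line marks equal values, points lie in the lower left and upper right quadrants only, and piRNAclusterDB_912 lies farthest above the line, at 6.02 against 1.44.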

How the data were processed

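Small RNA of 10 libraries was counted by the authors, and the deposited table holds whole-number counts per small RNA feature, without normalization. Per the labels, the NextFlex V3 kit for small RNA was used, and the submitters' processing notes name cutadapt 1.2.1, Bowtie2 and mm10. The counting program and the treatment of reads with several matches are not given in the sources used here, so copies of one RNA may share reads. Reads were not collapsed to molecules here, so intervals cover counting error only.

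Counts of the 4 3'RR-deficient and 4 wt libraries were fitted with edgeR 4.0.16 in R 4.3.3 (TMM, filterByExpr, quasi-likelihood F-test with a mean per group, Benjamini-Hochberg adjustment over all rows tested). DESeq2 1.42.0, other scalings and filters, single classes, a replicate block and leaving out each library were the alternatives. The Eµ-deficient libraries, 1 per condition, were not used. Totals ran from 3482540 to 15073103 counts per library. Single-library ratios used a prior count of 2. Rows "without overlap" have both LPS values above, or below, both non-stimulated ones. Named were, per direction, the 10 mature microRNAs (mean of at least 100 CPM in 1 group) and 3 rows of each other class (at least 20 CPM) with the largest fold change at an unadjusted p under 0.05 without overlap, and the members of the lists. Rows outside this rule (miR-511-3p, miR-6943-3p, the minor arms, and miR-135a-5p, miR-135b-5p, Mir148a and Mir181b-1, called in the microRNA fit) were chosen after their values were seen. Positions are those of the table, and genes come from GENCODE M21. Of 2845 transcript rows, 2589 were found there, and 1093 of 1302 mature microRNAs had a RefSeq sequence. The scripts were tested on simulated counts. The comparison, the lists and the naming rule were chosen with earlier results of these data known.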

Additional observations from a re-analysis of the deposited data

How the results depend on the processing

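Calls over all classes numbered 0 with edgeR under TMM, under DESeq2 size factors, with at least 10 CPM in 2 libraries, with the 4 libraries of 3'RR-deficient cells alone and with the other classes fitted without microRNAs. They numbered 6 with total count scaling, 166 without a filter on low counts and 113 with the DESeq2 Wald test. The microRNA class alone gave 7, and mature microRNAs alone gave 5 of 607 rows. With the GC trend also removed there were 27, but only the 497 rows with a RefSeq sequence were then tested. Leaving out each library in turn gave 0 calls each time, with 256 to 590 rows at an unadjusted p under 0.05. The replicate block, which pairs libraries by number, gave 0 calls and 517 rows at an unadjusted p under 0.05. Same-numbered libraries did not deviate together between the conditions (r = -0.06 across rows, which are not independent), but they did between 3'RR-deficient and wt cells within a condition (r = 0.72 without LPS and 0.39 with LPS), which the labels do not explain. Of the alternatives chosen after seeing the data, a replicate block within each culture condition gave 266 calls, and leaving out both second non-stimulated libraries or the piRNA clusters gave 0. Of the 7 microRNA calls, 5 passed with total counts and 7 without a filter and with the block within condition, but 0 with the other edgeR fits over all classes. The difference between genotypes gave 0 calls under every alternative run.

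Directions of single rows turned as follows, in log2 units, and the cause was not tested. miR-142a-5p was 0.30 with total counts, 0.28 with microRNAs alone, 0.35 with mature microRNAs alone and 0.63 with either block, and ran from -1.59 to 2.97 with 1 library left out. miR-146a-5p was 0.70, 0.79, 0.79 and 0.37 in the same fits, 0.35 with the block within condition, 0.07 with the CPM filter, 0.00 with 4 libraries, 0.38 with GC removed and 0.26 without piRNA clusters, and ran from -0.76 to 1.58. miR-98-5p was 0.59, 0.64, 0.66 and 0.20, then 0.45 with the block within condition and 0.09 without piRNA clusters, and ran from -1.02 to 1.86 with 1 library left out. let-7j was 0.07, 0.17 and 0.16 in the first 3 of these fits and ran from -1.34 to 0.88. miR-92a-3p was 0.38 with GC removed. With 1 library left out, let-7g-5p ran from -1.92 to 0.19, let-7i-5p from -1.63 to 0.64, miR-26a-5p from -2.45 to 0.58 and miR-451a from -3.49 to 0.13.

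Class shares (LPS minus non-stimulated, percentage points) relative to the counts outside the microRNA class were 0.431 for tRNA, -2.43 for piRNA clusters, 2.77 for snoRNA, -0.125 for snRNA, -0.308 for misc_RNA and -0.329 for rRNA. With 1 library left out they ran from -3.35 to 3.27 for tRNA, -1.88 to 2 for piRNA clusters, -1.03 to 2.8 for snoRNA, -0.0751 to 0.00411 for snRNA, -0.208 to 0.0252 for misc_RNA and -0.24 to 0.0185 for rRNA. Counts of 0 without LPS rest on totals of 11915044 and 3756662 counts.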
